A study of Homo sapiens with 4 samples.

Results

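In libraries of cells treated with NBT, with trametinib or with both drugs, 10 genes of the unfolded protein response (UPR) were followed. They were the sensor genes EIF2AK3, ERN1 and ATF6 and the genes of the stress factors and effectors XBP1, ATF4, DDIT3, ATF3, TRIB3, PPP1R15A and CEBPB. The genes were chosen by symbol, as members of the PERK, IRE1 and ATF6 arms of the response, and all 10 were found among the 16834 genes of the expression table. All 10 had at least 172 reads in every library and entered every comparison.

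Cells titled MIA PaCa-2, an established pancreatic cancer line, were labelled as control or given drugs. The drugs were 1 µM NBT (neobractatin, a natural compound), 5 µM of the MEK inhibitor trametinib, or both (combination). Treatment lasted 12 h, and the labels name no vehicle for the control. RNA of each condition was sequenced as 1 library, which leaves every value without a replicate and the spread between cultures unmeasured. The purpose stated for the series was to examine how the drugs act together.

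The libraries held between 18776212 and 19614763 estimated reads, and 3 reads, taken as the limit of detection, corresponded to between 0.153 and 0.160 CPM, that is, reads scaled to the same library sum. The titles name MIA PaCa-2 for all libraries, whereas the cell line entries give the names MIA PaCa-2, MIA PaCa-3, MIA PaCa-4 and MIA PaCa-5. The epithelial keratin genes KRT8 and KRT18 were abundant, with 26811 to 63594 and 14049 to 41334 reads. VIM, a mesenchymal filament gene that MIA PaCa-2 cells express, had only 202 to 500 reads. CDKN2A, which is homozygously deleted in MIA PaCa-2, had 2643 reads under control conditions, 2674 under NBT, 3524 under trametinib and 3187 under both drugs, and thus went against the titled line in all 4 libraries. Of genes looked up after these values had been seen, MTAP, the neighbour of CDKN2A, had 815 to 1151 reads, the E-cadherin gene CDH1 2539 to 4086, the basal keratin gene KRT5 14518 to 67741 and TP63 1565 to 2863. The libraries are therefore called here by their treatment, and the results are not assigned to a verified cell line. Markers of other cells were low, with 8 to 17 reads of PTPRC (leukocytes), 14 to 26 of PECAM1 (endothelium), 27 to 98 of COL1A1 (fibroblasts) and at most 1 read of CPA1 (acinar cells).

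The endoplasmic reticulum carries 3 sensors of misfolded protein. PERK, encoded by EIF2AK3, phosphorylates the initiation factor eIF2α, which lowers general translation while raising that of ATF4. IRE1α, encoded by ERN1, removes a short intron from XBP1 mRNA in the cytoplasm and so switches its reading frame, and ATF6 is cut in the Golgi to release a transcription factor. Much of this control is exerted on protein and on translation, which mRNA counts do not show.

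The XBP1 intron is a mark of IRE1α activity that RNA carries directly, and the deposited table counts both transcripts. The intron of 26 nucleotides lies in the coding sequence, in exon 4 of the 5 exons of the unspliced transcript, on the minus strand of chromosome 22 (GRCh38, chr22:28796124-28796149). The stretch below covers chr22:28796109-28796164, with the intron in capitals and 15 coding bases on either side, and is followed by the same stretch after removal of the intron, both 5′ to 3′ in the sense of the mRNA.

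XBP1 unspliced: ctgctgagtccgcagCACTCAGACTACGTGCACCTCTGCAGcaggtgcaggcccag

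XBP1 spliced: ctgctgagtccgcagcaggtgcaggcccag

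As 26 is not a multiple of the codon length, the frame downstream of the junction changes. In the GENCODE v29 models the coding sequence extends to 261 codons in the unspliced and 376 codons in the spliced transcript.

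XBP1 is also a gene whose promoter carries the ER stress response element (ERSE), the site bound by ATF6 and XBP1 together with NF-Y. Promoter windows of 250 bases before and 50 bases after each RefSeq start site (GRCh38.p14) were searched on both strands for CCAAT and CCACG separated by any 9 bases (ERSE), ATTGG and CCACG separated by any 1 base (ERSE-II), TGACGTGG (UPRE), TGATGNAA (C/EBP-ATF element) and TGACGTCA (CRE). The last is its own reverse complement, shares its first 6 letters with the UPRE, and the ERSE and ERSE-II share their last 5 letters. Among the 17 windows of the 10 genes, only 1 window each of XBP1 (ERSE), PPP1R15A (CRE) and ATF3 (C/EBP-ATF element) held a match. Of all 35116 windows 0.0769% held the ERSE, 0.0541% the ERSE-II, 0.729% the UPRE, 3.62% the C/EBP-ATF element and 1.85% the CRE. A match is a sequence description and not evidence that a factor was bound. The 250 bases upstream of XBP1 (chr22:28800570-28800819, minus strand) are shown with the ERSE in capitals, 52 to 34 bases before the start site, and those of PPP1R15A (chr19:48872171-48872420, plus strand) with the CRE in capitals, 58 to 51 bases before the start site.

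XBP1 promoter: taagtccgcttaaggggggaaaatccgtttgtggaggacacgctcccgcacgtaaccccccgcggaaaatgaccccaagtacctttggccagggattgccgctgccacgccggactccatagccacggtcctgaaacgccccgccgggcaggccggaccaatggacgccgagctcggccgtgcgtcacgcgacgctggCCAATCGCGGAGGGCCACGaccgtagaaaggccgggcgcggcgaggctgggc

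PPP1R15A promoter: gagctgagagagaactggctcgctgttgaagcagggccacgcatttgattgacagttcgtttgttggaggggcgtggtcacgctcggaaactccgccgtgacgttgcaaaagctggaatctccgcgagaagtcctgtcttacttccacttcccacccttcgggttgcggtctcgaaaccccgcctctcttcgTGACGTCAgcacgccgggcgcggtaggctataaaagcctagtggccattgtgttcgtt

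Together the 10 genes took 0.110% of all reads in the control library, 0.220% under NBT, 0.121% under trametinib and 0.287% under the combination. Per transcript length, as deposited TPM (transcript abundance scaled to length and depth), ATF4 stood highest in every library, at 651 under control conditions, 912 under NBT, 765 under trametinib and 934 under both drugs. ERN1 stood lowest in every library, at 2.51, 3.99, 1.99 and 5.06 TPM in the same order. In the control library PPP1R15A (221 TPM), CEBPB (98.0), XBP1 (82.6), TRIB3 (50.1), ATF3 (37.4), ATF6 (33.1), DDIT3 (20.9) and EIF2AK3 (6.81) lay between. DDIT3 moved furthest up this order, to 276 TPM with the combination, above TRIB3 (249), XBP1 (271) and ATF6 (63.8) and below ATF3 (300), CEBPB (309) and PPP1R15A (599). In RNA of whole cultures, a change in every cell and a change in a share of the cells cannot be told apart. The plot of levels shows the combination library at the right end of the row of every gene.

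**Figure D1:**
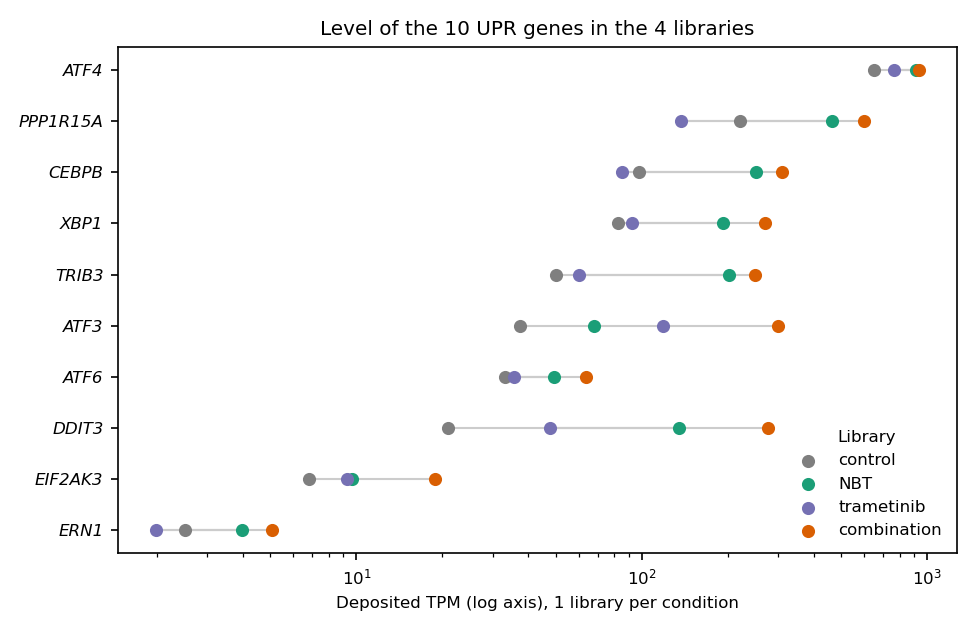
Deposited TPM of the 10 UPR genes on a log axis, with 1 point per library and a line joining the 4 libraries of a gene. The combination point lies highest for all 10 genes, from 5.06 TPM (ERN1) to 934 TPM (ATF4), and the trametinib point lies below the control point for PPP1R15A, CEBPB and ERN1.

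Ratios of libraries were taken on estimated reads scaled to the library sums after adding 0.5 reads, as log2 values with exact 95% intervals of the ratio of 2 counts. The intervals cover counting error only. A gene was called higher or lower when it passed the limits of the study's methods, a Poisson false discovery rate of at most 0.05 together with a log2 ratio at or beyond 1 or -1, with an exact binomial test of the counts of the 2 libraries. The test compares libraries and not conditions, so no p-value is given. With NBT 5 of the 10 genes were called higher and 0 lower, in a comparison in which 1.6% of 15888 tested genes were called higher and 1.01% lower. With trametinib 2 were called higher and 0 lower (3.82% of 16197 genes called higher and 2.15% lower), and with the combination 7 higher and 0 lower (4.73% of 16229 genes higher and 3.69% lower). The median log2 ratio of the 10 genes was 1.03, 0.22 and 1.61 in these comparisons, and that of all tested genes was -0.01, 0.08 and 0.05. The Poisson model allows for no variation between cultures. With a negative binomial test that assumed a coefficient of variation of 0.2 between cultures, DDIT3 and TRIB3 passed with NBT, ATF3 with trametinib and the same 7 genes with the combination, and with 0.4 only DDIT3 passed, with the combination. Of the 15888, 16197 and 16229 genes tested, 51, 203 and 296 were called higher with 0.2, and 3, 13 and 30 with 0.4. These 3 comparisons share the control library, so their values are given side by side and not as independent observations.

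**Figure D2:**
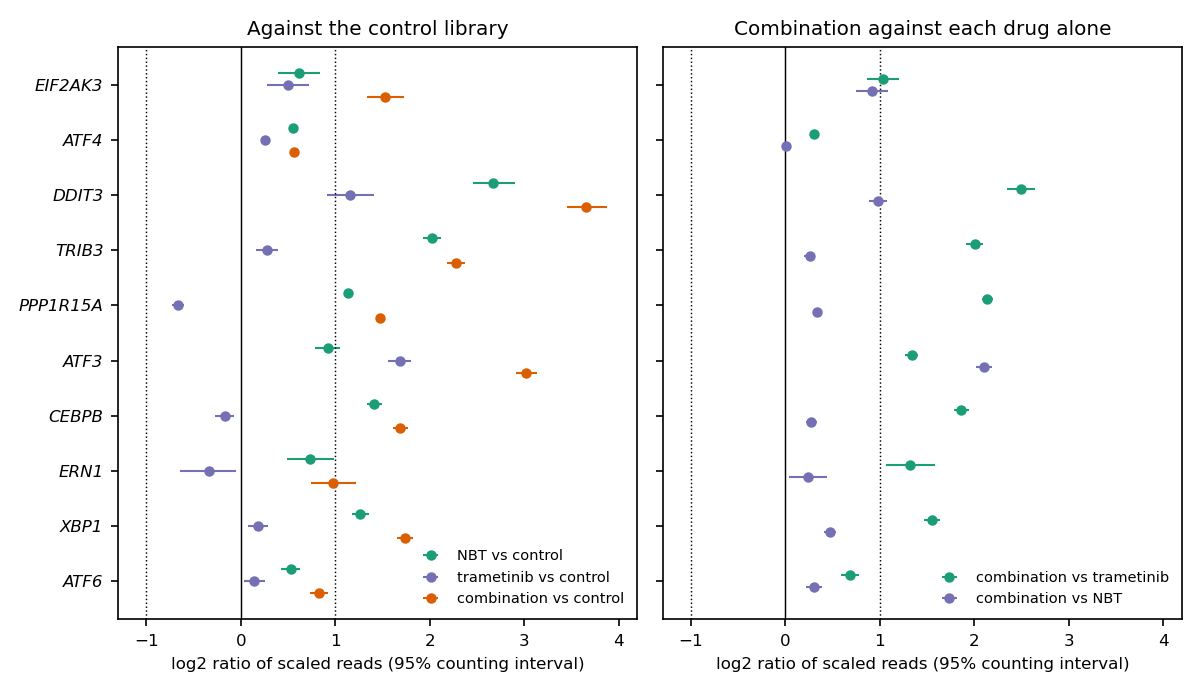
Log2 ratios of scaled reads for the 10 UPR genes with 95% counting intervals, against the control library (left) and for the combination library against each drug alone (right). Solid lines mark 0 and dotted lines the limits of -1 and 1. DDIT3 reaches 3.66 with the combination, and PPP1R15A, CEBPB and ERN1 are the genes below 0 with trametinib.

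In the PERK arm, the sensor gene EIF2AK3 (chr2:88556741-88628145) had 285 reads under control conditions, 452 under NBT, 407 under trametinib and 861 under both drugs. The single-drug libraries stood close together between the control and the combination, and differed from each other by a log2 ratio of 0.11 (-0.08 to 0.31), which was within counting error. EIF2AK3 rose with the combination, by a log2 ratio of 1.53 (1.34 to 1.73), whereas its ratios of 0.61 with NBT and 0.50 with trametinib were short of the limit.

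ATF4 (chr22:39520559-39522686), the factor translated when eIF2α is phosphorylated, had 8712 reads under control conditions, 13221 under NBT, 10493 under trametinib and 13418 under both drugs. The NBT and combination libraries stood highest and differed by a log2 ratio of 0.01 (-0.03 to 0.04), which was within counting error. The ratios to the control were 0.55 under NBT, 0.26 under trametinib and 0.56 under the combination, none past the limit of 1. ATF4 was the most abundant of the 10 mRNAs and the one with the lowest ratio in the combination library.

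DDIT3 (chr12:57516588-57520517) encodes CHOP, a factor induced by ATF4 and linked to cell death under lasting stress. It had 196 reads under control conditions, 1298 under NBT, 443 under trametinib and 2589 under both drugs, so that every treated library lay above the control and the libraries with NBT lay highest. DDIT3 rose by a log2 ratio of 2.67 (2.46 to 2.90) under NBT, 1.16 (0.92 to 1.41) under trametinib and 3.66 (3.45 to 3.88) under the combination. It had the highest ratio of the 10 genes with NBT and with the combination.

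TRIB3 (chr20:380760-397559), a pseudokinase gene induced by ATF4 and CHOP, had 1070 reads under control conditions, 4499 under NBT, 1306 under trametinib and 5426 under both drugs. The libraries fell into a low pair without NBT and a high pair with NBT. TRIB3 rose by a log2 ratio of 2.02 with NBT and 2.28 with both drugs, and its ratio with trametinib was 0.27 (0.16 to 0.39).

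PPP1R15A (chr19:48872421-48876058) encodes GADD34, which directs a phosphatase to eIF2α and so reverses the signal of PERK. It had 4977 reads under control conditions, 11332 under NBT, 3171 under trametinib and 14461 under both drugs. Trametinib alone gave the lowest library and trametinib with NBT the highest. PPP1R15A rose by 1.14 (1.09 to 1.19) with NBT and 1.48 (1.43 to 1.52) with both drugs, and its log2 ratio with trametinib was -0.66 (-0.73 to -0.60), short of the limit.

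ATF3 (chr1:212565407-212620777), a bZIP factor induced by many stresses, had 718 reads under control conditions, 1405 under NBT, 2329 under trametinib and 6091 under both drugs. It was the one member of the 10 with more reads in the trametinib than in the NBT library. ATF3 rose by 1.68 (1.56 to 1.81) with trametinib and 3.02 (2.91 to 3.14) with the combination, and its log2 ratio of 0.92 with NBT was just short of the limit.

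CEBPB (chr20:50190583-50192690), a bZIP factor that pairs with CHOP and ATF4, had 1704 reads under control conditions, 4706 under NBT, 1526 under trametinib and 5745 under both drugs. As with TRIB3, the pair of libraries with NBT stood above the pair without it. CEBPB rose by 1.42 with NBT and 1.69 with both drugs, and its ratio with trametinib was -0.17 (-0.27 to -0.07).

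In the IRE1 arm, the sensor gene ERN1 (chr17:64039142-64130144) had 216 reads under control conditions, 373 under NBT, 172 under trametinib and 444 under both drugs. The libraries with NBT were again the higher pair. The ratios to the control, none past the limits, were 0.74 (0.49 to 0.99) under NBT, -0.34 (-0.64 to -0.05) under trametinib and 0.97 (0.74 to 1.22) under the combination.

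XBP1 (chr22:28794560-28800569) had 1411 reads under control conditions, 3510 under NBT, 1616 under trametinib and 4910 under both drugs. The gene rose by a log2 ratio of 1.26 (1.18 to 1.35) with NBT and 1.74 (1.65 to 1.82) with both drugs, and its ratio with trametinib was 0.18 (0.08 to 0.29).

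The 2 RefSeq transcripts of XBP1, which differ at the intron shown above, were divided differently between the libraries. The spliced transcript had 45 reads under control conditions, 2608 under NBT, 55 under trametinib and 3623 under both drugs, and the unspliced transcript 1366, 901, 1561 and 1287. The spliced transcript was thus a minor form in both libraries without NBT and the major form in both libraries with it. Its share of XBP1 reads was 3.19% (2.34% to 4.24%) in the control, 74.3% (72.8% to 75.8%) under NBT, 3.40% (2.57% to 4.41%) under trametinib and 73.8% (72.5% to 75.0%) under the combination, with exact (Clopper-Pearson) 95% binomial intervals.

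In scaled reads the spliced transcript was 55.4-fold higher than the control with NBT and 76.3-fold higher with the combination, log2 ratios of 5.79 (5.38 to 6.27) and 6.25 (5.84 to 6.73). With trametinib its log2 ratio was 0.27 (-0.32 to 0.88), within counting error of no difference. The unspliced transcript had log2 ratios of -0.65 (-0.77 to -0.53) under NBT, 0.18 under trametinib and -0.15 (-0.26 to -0.04) under the combination. The rise of the gene in the libraries with NBT was therefore made of spliced reads, as the stacked bars show. The division of reads between the transcripts is an estimate of the authors' counting program, and reads from their shared sequence cannot tell them apart.

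**Figure D3:**
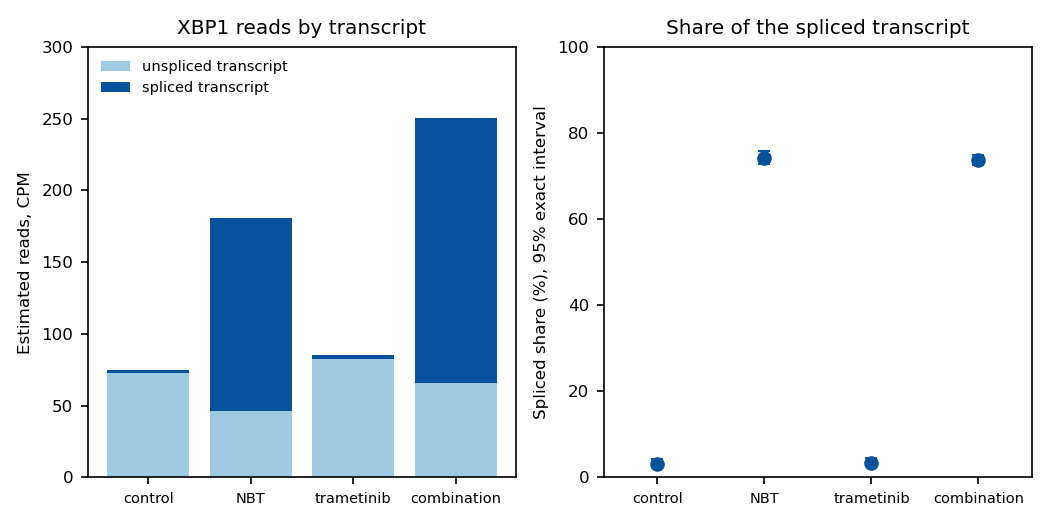
CPM (reads scaled to the same library sum) on the unspliced and spliced XBP1 transcripts as stacked bars (left), and the share of the spliced transcript with its exact 95% interval (right), in the 4 libraries. The spliced share lies at 3.19% and 3.40% in the libraries without NBT and at 74.3% and 73.8% in those with NBT.

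In the third arm, ATF6 (chr1:161766320-161964070) had 1308 reads under control conditions, 1952 under NBT, 1459 under trametinib and 2424 under both drugs. The order of the libraries was that of most members, with the combination highest, and the steps were small. The log2 ratios of 0.53 (0.43 to 0.63) under NBT, 0.14 (0.04 to 0.25) under trametinib and 0.83 (0.73 to 0.93) under the combination were all short of the limit. The trametinib value was near the median of all tested genes in that comparison, 0.08.

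Across the arms, the sensor genes EIF2AK3, ERN1 and ATF6 had log2 ratios of 1.53, 0.97 and 0.83 with the combination, and the other 7 genes lay between 0.56 (ATF4) and 3.66 (DDIT3). In a gene's order of levels, the neighbouring libraries that could not be told apart by their counts were trametinib and NBT for EIF2AK3 and NBT and the combination for ATF4.

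The combination was then compared with each drug alone. Against the trametinib library, 8 of the 10 genes were called higher and 0 lower (2.56% of 16343 tested genes were called higher and 3.55% lower), with a median log2 ratio of 1.45 against -0.04 for all tested genes. The highest ratios were those of DDIT3 (2.50), PPP1R15A (2.14), TRIB3 (interval 1.92 to 2.09), CEBPB (1.86) and XBP1 (1.55). ATF3, at 1.34, ERN1, at 1.32, and EIF2AK3, at 1.03, also passed the limits, and ATF4 (0.30) and ATF6 (0.68) did not. Against the NBT library 1 of the 10 genes, ATF3, was called higher and 0 lower (2.38% of 16250 genes higher and 1.99% lower), with a median of 0.32 against 0.03 for all tested genes. ATF3 stood at 2.10 in that comparison, and DDIT3 (0.98) and EIF2AK3 (0.92) were close below the limit of 1. DDIT3 therefore marks the edge of the limits here, and its deposited TPM values gave a ratio of 1.03. The other 7 genes lay between 0.01 (ATF4) and 0.47 (XBP1).

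The combination library was also set against the product of the single-drug ratios, a description of how far the 2 changes multiply. A departure of 0 means that the combination ratio equals the product, and its 95% interval comes from the counts of the 4 libraries. PPP1R15A departed furthest, with 14461 reads observed where the product gives 7219, a log2 departure of 1.00 (0.93 to 1.08). ERN1 (0.58, 0.23 to 0.93), CEBPB (0.45, 0.33 to 0.56), ATF3 (0.42, 0.27 to 0.57) and EIF2AK3 (0.42, 0.14 to 0.69) followed, with ATF3 at 6091 reads against 4557. XBP1 (0.29, 0.17 to 0.41) and ATF6 (0.16, 0.02 to 0.29) departed less.

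DDIT3 (-0.18, -0.44 to 0.08) and TRIB3 (-0.02, -0.15 to 0.11) had intervals that include 0, and ATF4 lay below the product at -0.25 (-0.30 to -0.19). In all, 7 of the 10 genes lay above the product beyond counting error, 1 lay below and 2 could not be told from it. Among 11367 genes with at least 50 reads in 1 library, by the same intervals, 19.1% lay above the product, 24.0% lay below and 56.9% could not be told from it. Their median departure was -0.03, 15.2% departed by at least 0.25 upwards, 21.6% by at least 0.25 downwards and 12.1% by at least 0.5 in either direction. In PPP1R15A, CEBPB and ERN1 the ratio with trametinib alone was below 0 and that with trametinib added to NBT above 0.

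**Figure D4:**
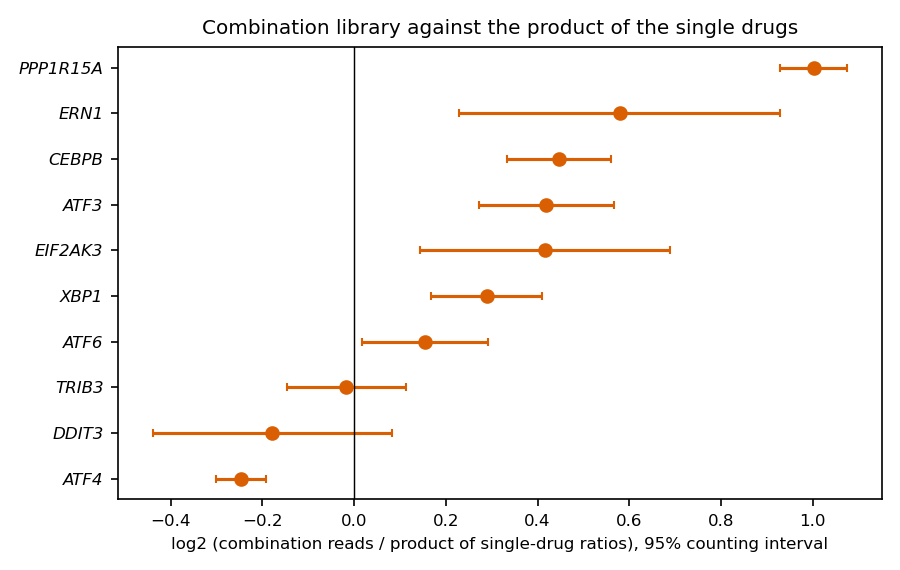
Log2 departure of the combination library from the product of the single-drug ratios for each of the 10 UPR genes, with 95% counting intervals. PPP1R15A lies at 1.00, ATF4 at -0.25, and the intervals of TRIB3 and DDIT3 cross 0.

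The transcript table adds detail on 9 of the 10 genes, which have more than 1 transcript there. The transcript followed for each gene was the one with the most reads in the combination library. A high share in that library is therefore partly set by this choice. For ATF3, the share of NM_001674.4 was 58.4% (54.7% to 62.0%) in the control, 70.2% (67.8% to 72.6%) under NBT, 64.4% (62.4% to 66.4%) under trametinib and 74.2% (73.1% to 75.3%) under the combination. The share was higher with NBT than without it in both pairs. For TRIB3, NM_001301188.1 took 36.2% (33.3% to 39.2%), 50.3% (48.8% to 51.7%), 40.9% (38.3% to 43.7%) and 55.8% (54.4% to 57.1%) of the reads in the same order of libraries. The libraries with NBT thus had the larger shares of this transcript. NM_021158.4, which had the most TRIB3 reads in the control library, took 58.9%, 42.9%, 56.3% and 38.0% in that order.

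For ERN1, NM_001433.5 took 57.2% in the control, 55.2% under NBT, 59.9% under trametinib and 72.5% under the combination. NM_007348.4 of ATF6 took 39.3%, 33.8%, 24.1% and 41.7% in the same order. In neither gene was the share under NBT alone above that of the control. NM_004083.5 of DDIT3 took between 51.8% and 63.1%, with the highest share in the combination. ATF4 and CEBPB rested on 1 main transcript each, with NM_182810.2 at 96.8% to 97.5% and NM_005194.4 at 94.6% to 96.3%. The leading transcript of EIF2AK3, NM_004836.7, took 55.4% (49.5% to 61.3%) in the control and between 79.9% and 90.9% in the treated libraries, and a second one, NM_001313915.1, was listed at 0 reads with NBT and at 77 to 173 reads in the other libraries. Transcripts of these genes share most of their sequence, so such shares depend on how the program divided the reads. At the level of genes, the estimated counts of 7 of the 10 were not whole numbers in all libraries, the exceptions being EIF2AK3, PPP1R15A and ATF3.

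Genes known as readouts of each arm were examined as 4 lists beside a list of other eIF2 kinases and of processing factors and a list of bZIP relatives. The lists are named after 1 arm or factor each, and whether their genes responded to that arm alone was not tested. Of 14 readouts of ATF4 and CHOP, 7 were called higher and 1 lower with NBT, 3 higher and 1 lower with trametinib, and 8 higher and 0 lower with the combination. Their median log2 ratios were 1.29, 0.74 and 1.79, against -0.01, 0.08 and 0.05 for all tested genes. In the same order, 1.6%, 3.82% and 4.73% of all tested genes were called higher and 1.01%, 2.15% and 3.69% lower. SLC7A11, the cystine transporter gene, had 279 reads under control conditions, 2491 under NBT, 739 under trametinib and 5136 under both drugs and rose in all 3 comparisons. SESN2, a sestrin gene, rose from 267 reads to 2015 with NBT and 2981 with the combination, with 476 reads with trametinib. ASNS, for asparagine synthetase, CHAC1, which degrades glutathione, CTH and PSAT1 of amino acid synthesis and STC2 made up the 7 with NBT.

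Members of the same list differed in direction. SLC3A2, which encodes the heavy chain of amino acid transporters, fell with NBT (from 16603 to 7047 reads, log2 ratio -1.29), and TNFRSF10B, the death receptor DR5 gene, fell with trametinib (from 1967 to 842 reads, -1.24). TNFRSF10B had 2672 reads with NBT and 1991 with the combination and was not called there. BBC3, which encodes the BH3 protein PUMA, rose with trametinib (from 83 to 171 reads) and the combination (323 reads, log2 ratio 1.89). Its log2 ratio with trametinib, 1.03 (0.64 to 1.43), was just past the limit of 1.

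Of 10 readouts of XBP1, DNAJB9, EDEM1 and SEC24D were called higher with NBT and with the combination, and 0 with trametinib. The shares of all tested genes called higher were 1.6% with NBT, 4.73% with the combination and 3.82% with trametinib. The list medians were 0.77, -0.12 and 0.89 with NBT, trametinib and the combination, and all 10 genes had ratios above 0 in both libraries with NBT. DNAJB9, a co-chaperone of the ER lumen, had 162 reads under control conditions, 756 under NBT, 125 under trametinib and 1349 under both drugs. The lowest ratio in both libraries with NBT was that of SEC31A, a coat protein gene of ER export, at 0.17 and 0.53. Against the trametinib library, the combination was called higher for DNAJB9, SEC24D, SSR1 (log2 ratio 1.26), DNAJB11 (1.25) and SRPRB (1.44), and for 2.56% of all tested genes.

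Of 10 readouts of ATF6, 6 were called higher under NBT, 0 under trametinib and 8 under the combination, with medians of 1.25, -0.10 and 1.39. Among all tested genes 1.6%, 3.82% and 4.73% were called higher in these comparisons. HSPA5, which encodes the chaperone BiP, had 9310 reads under control conditions, 61352 under NBT, 8012 under trametinib and 76120 under both drugs. HERPUD1, a gene of ER-associated degradation, had 908, 6615, 1364 and 9808. Both were highest in the libraries with NBT, as was the spliced XBP1 transcript. HSP90B1, MANF, HYOU1 and SDF2L1 completed the 6 with NBT, and CRELD2 and SEL1L passed only with the combination among the 3 comparisons with the control. CALR, the calreticulin gene, had the lowest ratios of the list with NBT (0.19) and the combination (0.36).

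The ERSE found upstream of XBP1 recurred in this list. It was present in the windows of HSPA5, HSP90B1, CALR and CRELD2, 4 of the 10 genes. The ERSE-II, which no window of the UPR members held, was present in those of HERPUD1, HYOU1 and SDF2L1. The ERSE matches are printed below with the fixed letters in capitals and in the direction of the motif, since this is the element that these 4 promoters share with XBP1 (GRCh38.p14, strand of the motif).

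XBP1 ERSE, chr22:28800603-28800621, minus strand: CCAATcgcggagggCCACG

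HSPA5 ERSE, chr9:125241391-125241409, minus strand: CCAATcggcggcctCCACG

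HSP90B1 ERSE, chr12:103930216-103930234, plus strand: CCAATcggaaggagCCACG

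HSP90B1 ERSE, chr12:103930321-103930339, minus strand: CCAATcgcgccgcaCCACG

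CALR ERSE, chr19:12938384-12938402, minus strand: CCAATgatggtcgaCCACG

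CRELD2 ERSE, chr22:49918554-49918572, minus strand: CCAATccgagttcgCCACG

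The presence of an ERSE did not fix the size of the ratio. With NBT the log2 ratio was 2.67 for HSPA5, 1.21 for HSP90B1, 0.88 for CRELD2 and 0.19 for CALR, the last 2 short of the limit. The list of 10 was drawn up from known ATF6 targets, some of them defined by this element, so its recurrence is a description of the list. In HYOU1 a UPRE overlapped one of the ERSE-II matches. The C/EBP-ATF element stood in the windows of ASNS, CHAC1 and SLC3A2 among 11 of the 14 ATF4 and CHOP readouts that had a window. It was not particular to that list. CEBPG, CREB3L2 and JDP2 held it among 14 bZIP relatives with a window, as did HERPUD1, SRPRB and PPP1R15B of other lists. Of all genes with a window, 4.46% held it.

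Of 12 genes of other eIF2 kinases and of processing factors, 0 were called in any of the 5 comparisons. In these comparisons 1.6% to 4.73% of all tested genes were called higher and 1.01% to 3.69% lower. At such shares, 0 of 12 does not set the list apart. Its medians were 0.00, 0.04 and 0.05 with NBT, trametinib and the combination. The list held EIF2AK1, EIF2AK2 and EIF2AK4, the kinases HRI, PKR and GCN2, which had ratios of -0.40, -0.01 and -0.63 with the combination. PPP1R15B, the constitutive partner of the phosphatase that GADD34 also directs, had 678 reads under control conditions, 758 under NBT, 667 under trametinib and 835 under both drugs, with ratios from -0.04 to 0.24. MBTPS1 and MBTPS2, which encode the proteases that cut ATF6, had 0.26 and 0.14 with the combination, and RTCB, the ligase that rejoins XBP1 mRNA, -0.03.

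Of 6 transcripts described as cut by IRE1 itself, 4 had at least 10 reads in 1 of the libraries compared, and 0 were called against the control. Of all tested genes, 1.6%, 3.82% and 4.73% were called higher with NBT, trametinib and the combination, and 1.01%, 2.15% and 3.69% lower. At such shares, 0 calls among so few genes cannot show whether IRE1 cut them. PDGFRB and SPARC had at most 2 reads in every library, so no ratio is given for them. BLOC1S1, the best known of these substrates, had 540 reads under control conditions, 490 under NBT, 718 under trametinib and 524 under both drugs. SCARA3 had 160, 99, 302 and 100 reads, and was lower in the combination than in the trametinib library past the limits (log2 ratio -1.64). In that comparison 3.55% of all tested genes were called lower. COL6A1 had 53, 41, 85 and 51 reads. HGSNAT had 351, 394, 523 and 579 reads and the highest ratio of these 4 genes to the control with the combination, 0.66 (0.47 to 0.85).

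Among 17 bZIP relatives, CEBPG and JDP2 were called higher with NBT, CEBPD and JDP2 with trametinib, and CEBPG, JDP2 and CREBRF with the combination, where ATF5 was called lower (-1.01). The shares of all tested genes called higher were 1.6%, 3.82% and 4.73%, and 3.69% were called lower with the combination. Against the trametinib library CREB3L2 (log2 ratio 1.00) and CEBPG were called higher with the combination, and against the NBT library CEBPD was. In these 2 comparisons 2.56% and 2.38% of all tested genes were called higher. Among those with at least 10 reads in either library, the median log2 ratio was 0.37 with NBT, 0.36 with trametinib and 0.71 with both drugs. CEBPG, a partner of ATF4, had 905 reads under control conditions, 1915 under NBT, 1109 under trametinib and 2569 under both drugs. JDP2, a relative of ATF3, had 182, 391, 702 and 479 reads, and so peaked with trametinib, unlike ATF3, which peaked with the combination. ATF5, itself a factor under translational control, had 507, 371, 368 and 263 reads. CEBPD had 794, 621, 2581 and 1384 reads, and its highest library was that with trametinib, whereas CEBPB was lowest there.

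**Figure D5:**
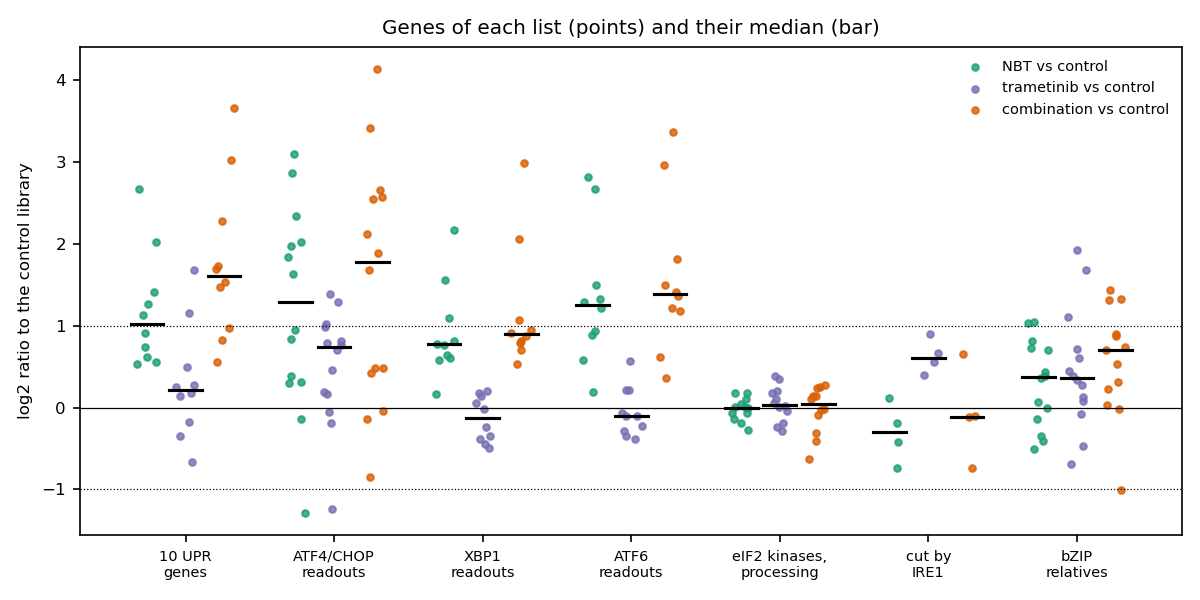
Log2 ratios to the control library for the 10 UPR genes and the genes of the 6 lists, with 1 point per gene that had at least 10 reads in either library compared and a bar at the median of the points. Dotted lines mark -1 and 1. The ATF6 readouts have medians of 1.25 and 1.39 with NBT and the combination and -0.10 with trametinib, whereas the eIF2 kinases and processing factors stay near 0 in all 3.

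For each of the 7 members called against the control, the 3 most similar patterns were sought among 10652 other genes with at least 100 reads in 1 library, by the Euclidean distance over the 3 log2 ratios to the control. XBP1 was nearest to ERO1B (distance 0.15), SLC33A1 (0.15) and ZNF222 (0.17). ERO1B had 299, 686, 327 and 1003 reads in the control, NBT, trametinib and combination libraries. CEBPB was nearest to MANF (0.24), HYOU1 (0.26) and SLC33A1 (0.27), of which MANF and HYOU1 are in the list of ATF6 readouts.

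DDIT3 was nearest to ADM2 (0.45), SESN2 (0.46) and BEST1 (0.63), and TRIB3 to STC2 (0.31), MAP1LC3B (0.31) and GCLM (0.34). SESN2 and STC2 are in the list of ATF4 and CHOP readouts. PPP1R15A, with its low point under trametinib, was nearest to SMOX (0.30), KLF4 (0.30) and SYVN1 (0.34), of which SYVN1 had 2075, 4424, 1531 and 5083 reads. ATF3 was nearest to SYNGR3 (0.38), which had 27, 43, 101 and 211 reads, to ITPKC (0.56) and to PHF11 (0.57). EIF2AK3 was nearest to SGTB (0.10), ASF1A (0.14) and LIN37 (0.16). The distances are descriptions over 3 ratios that share the control library.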

How the data were processed

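RNA of 4 conditions was sequenced on the BGISEQ-500 platform as 1 library each. The authors deposited, per gene and per RefSeq transcript, an estimated count (not normalized) and TPM and FPKM values scaled to length and depth. The submitters' processing notes name Bowtie2 2.2.5, RSEM 1.2.8 and hg38, without their roles. The extraction notes describe depletion of bacterial ribosomal RNA. FPKM values were not used here, nor was any column of the authors' own comparisons.

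Libraries were grouped by their treatment labels, and nothing states whether they came from separate cultures. Estimated counts of 16834 genes were rounded and scaled to library sums of 18776212 to 19614763. Genes with at least 1 count in either of the 2 libraries were tested by an exact two-sided binomial test with Benjamini-Hochberg adjustment. The calling step was run on simulated Poisson counts. These hold no variation between cultures, so that run cannot show how the calls behave under such variation. Ratios had 0.5 reads added, and intervals (95%, Clopper-Pearson) count only sampling of reads, which PCR copies make less independent than molecules. The members, lists and motifs were chosen with earlier results of these data known. Genes of a list that passed the limits in at least 1 comparison were named, as were some that marked the end of a list. Outside this rule, and after their values were seen, eIF2 kinases, PPP1R15B, MBTPS1, MBTPS2, RTCB and the transcripts cut by IRE1 were named for their roles. Nearest patterns were the 3 genes at the smallest distance. All 69 genes of the 6 lists were in the table.

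Alternatives were TMM (edgeR 4.0.16) and median-of-ratios (DESeq2 1.42.0) scaling, TPM with a pseudocount of 0.1, 5 added reads, transcript counts summed per gene, at least 10 counts, a log2 limit of 2, and negative binomial tests (edgeR) with assumed coefficients of variation of 0.2 and 0.4. Sequences came from GENCODE v29 (GRCh38) and RefSeq (GRCh38.p14). Computations ran in Python 3.11.15 (numpy 2.4.6, pandas 2.3.3, scipy 1.17.1, matplotlib 3.10.9) and R 4.3.3.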

Additional observations from a re-analysis of the deposited data

Results flagged for a closer look

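In 3 of the 10 genes trametinib went with opposite directions depending on whether NBT was present, a difference that was not tested because each condition has 1 library. PPP1R15A had a log2 ratio of -0.66 with trametinib alone against the control and of 0.34 with trametinib added to NBT against NBT alone. CEBPB had -0.17 and 0.27, and ERN1 had -0.34 and 0.24 in the same comparisons. All 6 values lay beyond counting error of 0, and none passed the limit of 1. The share of all genes with such opposite directions was not computed. The count of 3 of 10 therefore cannot be called high or low.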

How the results depend on the processing

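How many genes were called changed with the log2 limit and with the assumed spread of cultures, by construction of those tests. In the order NBT, trametinib and combination against control, then combination against trametinib and against NBT, the members called higher were 5, 2, 7, 8 and 1. With a log2 limit of 2 they were 2, 0, 3, 3 and 1. With an assumed coefficient of variation of 0.2 they were 2, 1, 7, 5 and 1, and with 0.4 they were 0, 0, 1, 0 and 0. In the same order, all genes called higher were 81, 226, 248, 104 and 152 at the log2 limit of 2, 51, 203, 296, 143 and 94 with a coefficient of 0.2, and 3, 13, 30, 6 and 5 with 0.4. All genes called lower were 35, 126, 153, 148 and 99, then 18, 162, 251, 159 and 110, then 1, 9, 21, 8 and 8. The genes tested in these comparisons were 15888, 16197, 16229, 16343 and 16250. With TPM values 2 members, DDIT3 (1.03) and ATF3, were called higher in the combination against NBT.

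Of 250 recomputed log2 ratios of members under scaling, added reads and summed transcripts, 247 kept their direction and their side of the limits. The others were that of DDIT3 and the ratio of ATF4 in the combination against NBT, which was -0.02 under both TMM and median-of-ratios scaling. TPM shares of spliced XBP1 were 3.23%, 74.6%, 3.44% and 74.1% in the control, NBT, trametinib and combination libraries. No paired analysis was possible because each condition has 1 library, and for the same reason no library could be left out. The lowest member count was 172 reads, and the variation between cultures was not measured.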
